A study of Homo sapiens with 96 samples.

Results

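The genes described here are 9 targets of the transcription factor NRF2: NQO1, GCLC, GCLM, TXNRD1, SRXN1, AKR1B10, AKR1C1, OSGIN1 and ME1. They were picked by symbol from a written list of NRF2 targets, leaving HMOX1 aside, and are 9 of the 60675 genes in the count table. Each symbol matched 1 row, and all 9 passed the filter on low counts in both batches. They were followed in A549, a human lung adenocarcinoma line, after exposure to extracts of Paeoniae Radix (peony root, a traditional medicine) or to compounds found in it. In batch 1 (21 libraries) the cells were given vehicle or 500, 100 or 20 µg/mL of one of 2 extracts, made with water or with ethanol. In batch 2 (75 libraries) they received paeoniflorin, albiflorin, hederagenin, oleanolic acid, catechin, gallic acid, paeonol or benzoic acid at 10, 2 or 0.4 µM, or vehicle. Every one of the 32 groups had 3 libraries, all of unmodified A549 as far as the labels say. How long the cells were exposed, and to what vehicle, is not given in the sources used here. Nothing says that replicates were separate cultures, so each p-value reflects the scatter among these libraries alone, and that scatter could be technical.

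NRF2, encoded by NFE2L2, drives genes that neutralise oxidants and reactive chemicals. In resting cells KEAP1 holds it and passes it to a CUL3 ligase for destruction, and oxidants or electrophiles that modify KEAP1 let it accumulate. It then pairs with small MAF proteins on a DNA motif called the antioxidant response element. A549 cells carry a defective KEAP1, so their NRF2 is active without any stimulus and its targets start from a high level.

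The members cover several arms of that response. NQO1 reduces quinones, and AKR1B10 and AKR1C1 reduce aldehydes and ketones, AKR1C1 steroids among them. GCLC and GCLM are the catalytic and the modifier subunit of the enzyme that starts glutathione synthesis. TXNRD1 keeps thioredoxin reduced and SRXN1 restores oxidised peroxiredoxins. ME1, the cytosolic malic enzyme, supplies NADPH. OSGIN1 encodes an oxidative stress-induced growth inhibitor.

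To show which members carry the NRF2 motif next to a start site, the 250 bases upstream of each start in RefSeq (GRCh38.p14) were searched on both strands for the core TGACNNNGC. Windows were at hand for 8 of the 9 members, 9 windows in all, with 2 for TXNRD1 and none for AKR1B10. The core was present in 4 windows of 3 members (ME1, GCLM and TXNRD1), and in 10.9% of all 35116 windows of that length. The matches are printed 5′ to 3′ on the gene's strand with the core in capitals.

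ME1: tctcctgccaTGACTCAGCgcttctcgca

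GCLM: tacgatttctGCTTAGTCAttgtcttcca

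TXNRD1, upstream start: acacgggctaTGACTTCGCtgttgtcacc

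TXNRD1, downstream start: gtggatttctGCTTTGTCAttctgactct

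The ME1 stretch lies at chr6:83431170-83431198 on the minus strand, with the core 129 to 137 bases upstream of the start. The GCLM stretch, at chr1:93909446-93909474 on the minus strand, holds the core on the opposite strand 26 to 34 bases upstream. The TXNRD1 stretches, both on the plus strand, lie at chr12:104215670-104215698 (core 91 to 99 bases upstream) and chr12:104286920-104286948 (94 to 102 bases upstream, opposite strand). OSGIN1 is shown beside them because its window held no such core but did hold TGACTCA, the site bound by AP-1 factors, which was present in 4.2% of all windows. That site also lies inside the ME1 core printed above.

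OSGIN1: gggcccctgcTGACTCAcgcttatgaa

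The OSGIN1 stretch lies at chr16:83953133-83953159 on the plus strand, with the AP-1 letters 91 to 97 bases upstream of that start. No match says only that these letters are absent from the window, and a match is not a bound site.

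Levels are given as CPM, the counts of a gene scaled to a fixed library total, with library sizes adjusted by the trimmed mean of M-values, as mean ± SD of 3 libraries. Between genes they can be compared only per length. Per kilobase of annotated exon, the batch 1 vehicle level was highest for AKR1B10 at 1052 CPM per kb, followed by NQO1 at 348, TXNRD1 at 199 and SRXN1 at 118. ME1 (39.5), AKR1C1 (29.1), GCLM (28.4), GCLC (23.7) and OSGIN1 (16.9) lay far below, with AKR1B10 62.2-fold above OSGIN1. The length used is the union of all annotated exons, 8765 bases for AKR1C1, whose coding sequence has 969, and 8646 for GCLC. Where the cells use shorter transcripts the value per kb is too low, so this order is approximate. Reads of AKR1C1 may also be divided with near-identical genes, as described below. Changes are log2 differences with their standard error (SE) from edgeR's quasi-likelihood test, Benjamini-Hochberg adjusted over all genes of a comparison, and a gene is said to rise or fall where the adjusted p is below 0.05. Groups are said not to overlap where all 3 libraries of 1 group lay above all 3 of the other. The share of all genes without overlap was not counted, so such separation does not set the members apart from other genes.

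In units of 1e6 counts, libraries held 17.9 to 28.1 in batch 1 and 15.7 to 35.6 in batch 2. Epithelial keratins were abundant throughout (KRT8 1341 to 2350 CPM in batch 1), whereas EPCAM was low at 0.785 to 5.2 CPM there. Of the immune markers, PTPRC, CD3E and LYZ stayed at or near 0 in both batches. CD68, also on that list, ran from 7.94 to 21.5 CPM in batch 1 and from 1.3 to 15.3 in batch 2. In batch 1 it was highest with the ethanol extract at 500 µg/mL (17.5 to 21.5 CPM). In batch 1 the 13 protein genes of the mitochondrial genome took 13.9 to 18.5% of counts in the vehicle libraries and 11.6 to 15.3% in treated ones. In batch 2 that share ran from 0.486 to 15.5%, with 18 libraries under 5%. A set of 4 batch 2 libraries, the first 3 of them among those 18 (catechin 10 µM replicate 2, catechin 2 µM replicate 2, gallic acid 2 µM replicate 1 and gallic acid 0.4 µM replicate 1) held COL1A2, a fibroblast collagen, at 485 to 606 CPM against at most 0.843 in the other 71. The summed fibroblast markers were at 966 to 1237 CPM in those 4 and 42 to 186 in the other 71. The common biological coefficient of variation was 0.0444 in batch 1 and 0.212 in batch 2, so the extract comparisons resolve far smaller changes.

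**Figure D1:**
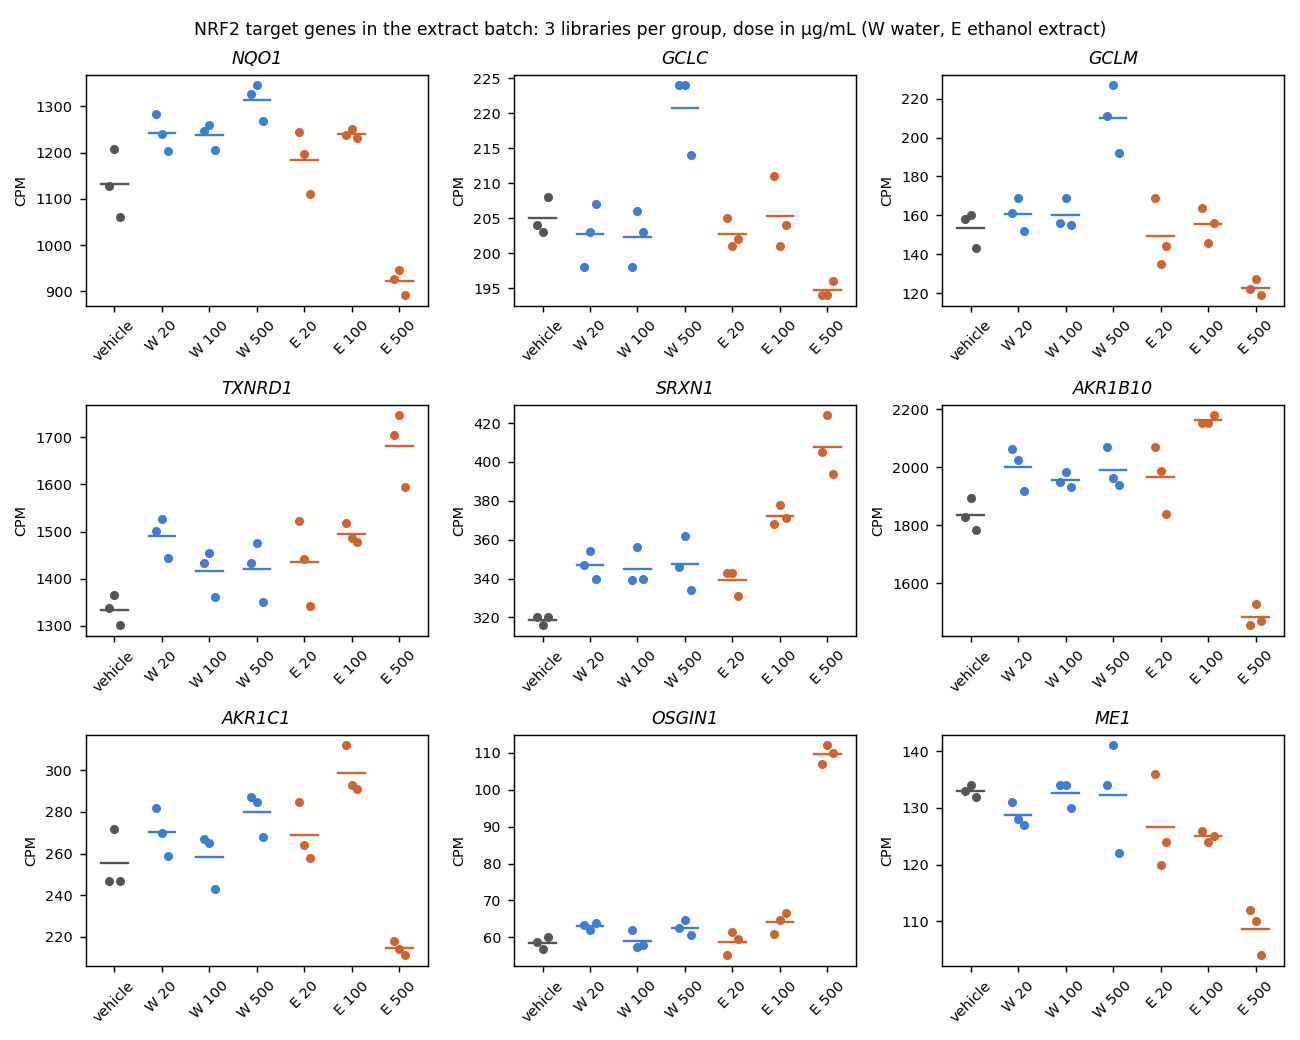
Level of each member in the 21 libraries of batch 1, in CPM on a linear axis that does not start at 0, with points for libraries and bars for group means. At 500 µg/mL the ethanol extract libraries are the highest for OSGIN1, SRXN1 and TXNRD1 and the lowest for the other 6 members.

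The ethanol extract at 500 µg/mL split the members. OSGIN1, SRXN1 and TXNRD1 rose against vehicle, while NQO1, AKR1B10, AKR1C1, GCLM and ME1 fell, so 3 of 9 were higher, 5 lower and 1 (GCLC) not past the test. Across all 16854 genes tested, 69.1% were called in this comparison, 34.7% higher and 34.4% lower, and the members' share of calls is read against that broad change. The median of the members was -0.25 on the log2 scale, against 0 over all genes tested. With so many genes changed, all values are relative to the rest of the library.

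OSGIN1 (chr16:83948282-83966332, plus strand) moved furthest. Its levels were 107, 112 and 110 CPM in the ethanol extract libraries, against 58.7, 56.8 and 60.1 in vehicle. The change was 0.90 ± 0.04 (SE), a 1.87-fold rise, with an edgeR adjusted p of 1.18e-14, and the groups did not overlap. At 100 µg/mL OSGIN1 was at 64.1 ± 3 CPM and at 20 µg/mL at 58.7 ± 3.26, so nearly all of its rise was seen at the highest dose. Tested directly, 500 against 20 µg/mL gave 8 of 9 members called, in the directions of the comparison with vehicle, where 67.5% of all genes were called; OSGIN1 differed by 0.90 ± 0.04 (edgeR adjusted p = 1.11e-14) and GCLC did not pass.

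SRXN1 (chr20:646615-653370, minus strand) was at 405, 424 and 394 CPM, against 320, 316 and 320 in vehicle. It rose by 0.36 ± 0.04 (edgeR adjusted p = 5.74e-09). Its level was ordered by dose: 339 ± 6.96 CPM at 20, 372 ± 5.55 at 100 and 408 ± 14.7 at 500 µg/mL, and these 3 groups did not overlap with each other or with vehicle.

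TXNRD1 (chr12:104215779-104350305, plus strand) was at 1704, 1747 and 1594 CPM, against 1337, 1365 and 1301 in vehicle, and rose by 0.33 ± 0.05 (edgeR adjusted p = 6.25e-07). The thioredoxin-linked members thus rose together, and no treated library reached down to a vehicle library. Antisense transcripts overlap TXNRD1, and others overlap NQO1 and GCLC, while a pseudogene lies opposite ME1. Whether strand was used in counting is not stated, so reads of these partners cannot be told apart from the members' own. On the same strand, annotated protein-coding genes overlap TXNRD1 (EID3), SRXN1 and OSGIN1, and a noncoding gene overlaps GCLC. Strand would not separate reads of those.

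The falls were smaller than the rise of OSGIN1 and close to each other. GCLM (chr1:93885205-93909456, minus strand) was at 122, 127 and 119 CPM, against 158, 160 and 143 in vehicle, a change of -0.32 ± 0.07 (edgeR adjusted p = 0.000296). AKR1B10 (chr7:134527592-134541408, plus strand) was at 1455, 1529 and 1468 CPM, against 1827, 1893 and 1782, a change of -0.31 ± 0.04 (edgeR adjusted p = 4.82e-07). All 3 ethanol extract libraries lay below all 3 vehicle libraries for both genes.

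NQO1 (chr16:69706996-69726951, minus strand) was at 927, 946 and 892 CPM, against 1127, 1207 and 1060 in vehicle, a change of -0.30 ± 0.04 (edgeR adjusted p = 3.37e-06). ME1 (chr6:83210389-83431071, minus strand) was at 112, 110 and 104 CPM, against 133, 134 and 132, a change of -0.29 ± 0.05 (edgeR adjusted p = 5.9e-06). AKR1C1 (chr10:4963253-4983283, plus strand) was at 218, 214 and 211 CPM, against 247, 272 and 247, a change of -0.25 ± 0.05 (edgeR adjusted p = 8.52e-05). None of these 3 genes overlapped between the groups either.

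GCLC (chr6:53497341-53616970, minus strand), partner of GCLM, was at 194, 194 and 196 CPM, against 204, 203 and 208. The libraries did not overlap, but the change of -0.07 ± 0.03 missed the threshold (edgeR adjusted p = 0.0513). The glutathione pair therefore moved by unequal amounts, with the catalytic subunit close to its vehicle level. The 8 calls were kept in all 12 settings tried for this comparison, and GCLC was called in 2 of the 12.

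**Figure D2:**
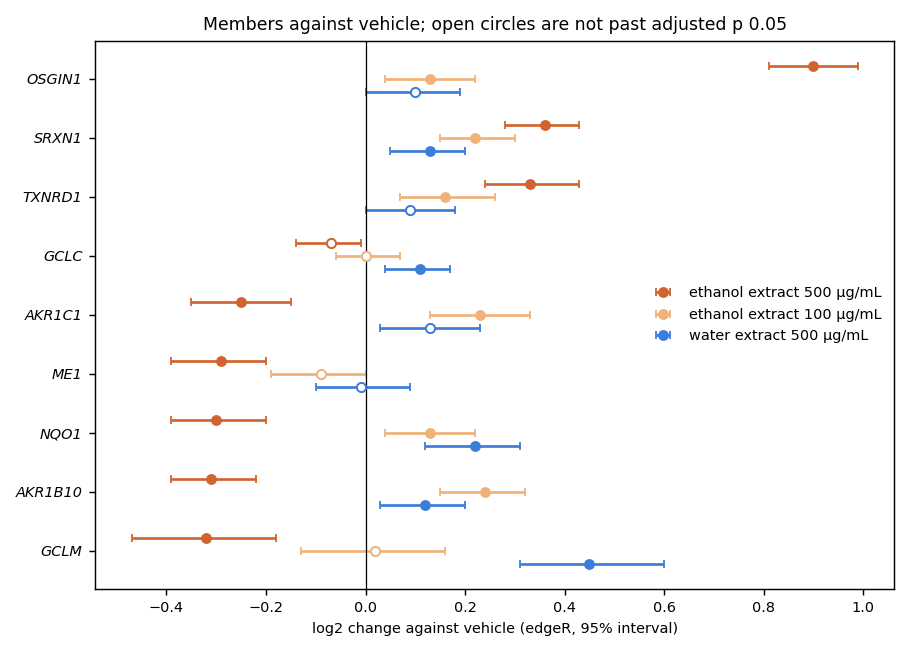
Log2 change against vehicle (x axis) for each member with its 95% interval, for the ethanol extract at 500 and 100 µg/mL and the water extract at 500 µg/mL; open circles missed an adjusted p of 0.05. NQO1, AKR1B10 and AKR1C1 lie to the right of 0 for the ethanol extract at 100 µg/mL and to the left at 500.

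The ethanol extract at 100 µg/mL raised 6 of 9 members and lowered none, where 17.5% of all genes were called, 8.26% higher and 9.23% lower. AKR1B10 stood at 2153, 2153 and 2179 CPM and rose by 0.24 ± 0.04 (edgeR adjusted p = 0.000332). AKR1C1, at 312, 293 and 291 CPM, rose by 0.23 ± 0.05 (edgeR adjusted p = 0.0024), and SRXN1 rose by 0.22 ± 0.04 (edgeR adjusted p = 0.000167). These groups lay above all vehicle libraries.

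TXNRD1 rose by 0.16, NQO1 by 0.13 and OSGIN1 by 0.13 (edgeR adjusted p = 0.0143, 0.0435 and 0.0455). NQO1, AKR1B10 and AKR1C1, the reductases of quinones and carbonyls, were called higher than vehicle at 100 µg/mL and lower at 500, and their 95% intervals at the 2 doses were apart. With the mitochondrial share as a covariate, a setting added after seeing the data, the values at 100 µg/mL were 0.01 for NQO1, 0.05 for TXNRD1 and 0.09 for AKR1C1 (edgeR adjusted p = 0.914, 0.418 and 0.098), and ME1 was called lower (-0.18, edgeR adjusted p = 0.0151). AKR1B10 and SRXN1 were called in all 12 settings of this comparison, AKR1C1 in 11, TXNRD1 in 9, NQO1 in 4 and OSGIN1 in 3. The 2 doses share the vehicle libraries and were not tested against each other. GCLC (0.00 ± 0.03), GCLM (0.02 ± 0.07) and ME1 (-0.09 ± 0.05) did not pass. Vehicle replicate 3 carried part of this count, which was 3 of 9 without it. At 20 µg/mL no member passed edgeR's test, where 7.45% of all genes did; 3 members had an unadjusted p under 0.05, and DESeq2 called 0. Without replicate 3 of the extract edgeR called 2.

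The water extract at 500 µg/mL raised 5 of 9 members and lowered none. OSGIN1 was not called, although its libraries (60.5 to 64.6 CPM) lay above those of vehicle (56.8 to 60.1). In this comparison 21.1% of all genes were called, 9.7% higher and 11.4% lower, and the median of the members was 0.12 against 0.01 over all genes. GCLM led, at 211, 227 and 192 CPM against 158, 160 and 143 in vehicle, without overlap. It rose by 0.45 ± 0.07, or 1.37-fold (edgeR adjusted p = 8.32e-05), and GCLC, at 224, 224 and 214 CPM, by 0.11 ± 0.03 (edgeR adjusted p = 0.019).

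NQO1 was at 1326, 1346 and 1269 CPM and rose by 0.22 ± 0.04 (edgeR adjusted p = 0.00147). SRXN1 rose by 0.13 and AKR1B10 by 0.12 (edgeR adjusted p = 0.0148 and 0.0416). The other 4 gave 0.13 for AKR1C1, 0.10 for OSGIN1, 0.09 for TXNRD1 and -0.01 for ME1, with edgeR adjusted p of 0.0528, 0.143, 0.166 and 0.943. The vehicle libraries had the higher mitochondrial shares given above. With that share as a covariate, GCLM alone was called (0.26, adjusted p = 0.0211). GCLM was called in all 12 settings and NQO1 in 11 of 12, against 7 for SRXN1 and GCLC and 6 for AKR1B10. The count was 3 without vehicle replicate 3 and 2 without replicate 1 or 2 of the extract.

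Lower doses of the water extract gave little. At 100 µg/mL SRXN1 rose by 0.11 ± 0.04 (edgeR adjusted p = 0.0373), 1 of 9 members where 12.6% of all genes were called. At 20 µg/mL TXNRD1 (0.16) and SRXN1 (0.12) rose (edgeR adjusted p = 0.0273 and 0.0316), 2 of 9 where 9.51% of all genes were called. Both counts went to 0 without vehicle replicate 1 or 3. At 100 µg/mL the count was also 0 without any of the extract's own 3 libraries, and at 20 µg/mL it was 0 without replicate 1 or 2 of the extract and 4 without vehicle replicate 2. In the direct comparison of 500 with 20 µg/mL, GCLM (0.39 ± 0.07) and GCLC (0.12 ± 0.03) were higher at the higher dose (edgeR adjusted p = 0.00245 and 0.0472), 2 of 9 where 2.05% of all genes were called. SRXN1 (0.00) and TXNRD1 (-0.07) did not pass. GCLM was called in all 15 settings of this comparison and GCLC in 5.

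Set against each other at the same dose of 500 µg/mL, the extracts differed in every member: all 9 passed the test, 3 higher and 6 lower with the ethanol extract, where 66.1% of all genes were called (32.7% higher, 33.3% lower). GCLM was at 123 ± 4.07 CPM with the ethanol and 210 ± 17.6 with the water extract, a difference of -0.78 ± 0.07 (edgeR adjusted p = 1.03e-09). NQO1 differed by -0.51 ± 0.04, AKR1B10 by -0.42 ± 0.04, AKR1C1 by -0.38 ± 0.05, ME1 by -0.29 ± 0.05 and GCLC by -0.18 ± 0.03. Every one of these groups lay apart from its counterpart, but how many of all genes did so was not counted.

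OSGIN1 was higher with the ethanol extract by 0.81 ± 0.04 (edgeR adjusted p = 9.64e-14), TXNRD1 by 0.24 ± 0.04 and SRXN1 by 0.23 ± 0.04. All 9 calls held in all 15 settings of this comparison. Both subunits of the glutathione enzyme were thus higher with the water extract, and both thioredoxin-linked members with the ethanol extract. That contrast did not extend to 9 other glutathione and thioredoxin genes, TXN and PRDX1 among them. Of these, 0 were higher with the ethanol extract and 7 lower. At 100 µg/mL AKR1C1 alone was called (0.21 ± 0.05, edgeR adjusted p = 0.0246), where 1.77% of all genes were. That call was lost without replicate 2 or 3 of the water extract or any of the 3 ethanol extract libraries, and 2 members were called without vehicle replicate 2. With both at 20 µg/mL edgeR and DESeq2 called no gene at all (0%), and 1 member, OSGIN1 (-0.10 ± 0.05), had an unadjusted p under 0.05.

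The order of the 7 group means shows the same split. The ethanol extract at 500 µg/mL was the lowest group for NQO1, GCLC, GCLM, AKR1B10, AKR1C1 and ME1, and the highest for TXNRD1, SRXN1 and OSGIN1, each time without overlap with its neighbour. The water extract at 500 µg/mL was the highest group for NQO1 (1313 ± 40.1 CPM), GCLC (221 ± 5.99) and GCLM (210 ± 17.6), apart from the next group for GCLC and GCLM but overlapping it for NQO1. The ethanol extract at 100 µg/mL was the highest for AKR1B10 (2161 ± 14.8) and AKR1C1 (298 ± 11.5). Most neighbours in between overlapped.

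Reads of near-identical genes limit AKR1C1 and AKR1B10. The coding sequence of AKR1C1 is 98% identical to that of AKR1C2 and 91.8% to that of AKR1C3, and AKR1B10 is 93.5% identical to AKR1B15. None of the deposited AKR1C1 values was a whole number (0%), as happens when shared reads are divided, against 100% for GCLM, TXNRD1, OSGIN1 and ME1. The share of whole values was 1.04% for AKR1B10, 2.08% for NQO1, 63.5% for GCLC and 67.7% for SRXN1. The same limit may therefore apply to NQO1, and in part to GCLC and SRXN1. Which genes NQO1 shares reads with was not tested. The sum of AKR1C1, AKR1C2 and AKR1C3, a check added after seeing the data, fell by 0.43 with the ethanol extract at 500 µg/mL (edgeR adjusted p = 6.71e-09). For the ethanol extract at 100 µg/mL the sum changed by 0.08 (edgeR adjusted p = 0.227), so the AKR1C1 rise at that dose did not hold for the summed family. Between the 2 extracts at 100 µg/mL the sum differed by 0.08 (edgeR adjusted p = 0.454). The AKR1C1 call in that comparison did not hold for the summed family either.

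Other genes of the pathway were counted in 7 lists holding 46 genes. With the ethanol extract at 500 µg/mL, 11 of 46 rose, 24 fell and 11 did not pass, with a median of -0.26. Over all genes tested, 34.7% rose and 34.4% fell in that comparison, and the counts per list are read against those shares. Among the genes that control NRF2, 6 of 9 rose and 3 fell. NFE2L2 went from 108 ± 5.63 to 138 ± 1.68 CPM (0.35 ± 0.04, edgeR adjusted p = 2.66e-08) and KEAP1 from 52.1 ± 4.43 to 77.6 ± 2.17 CPM (0.58 ± 0.06, edgeR adjusted p = 1.24e-08). SQSTM1, an autophagy adaptor that binds KEAP1, rose by 0.97 and BACH1, a repressor on the same DNA motif, by 1.51 (edgeR adjusted p = 2.41e-17 and 5.78e-15).

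The metabolic lists went mostly down. Of 5 genes that supply NADPH, 4 fell and none rose. PGD, a dehydrogenase of the pentose phosphate pathway, dropped from 1453 to 865 CPM (-0.75 ± 0.03, edgeR adjusted p = 3.8e-15). ME1, the member in this arm, fell less. Of 9 other glutathione and thioredoxin genes, 6 fell and none rose, led by MGST1, a membrane glutathione transferase (-1.21), and GPX2, a glutathione peroxidase (-1.22).

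Of 11 other carbonyl and drug metabolism genes, 8 fell, PIR among them (-0.59), and 1 rose, CYP4F11 (0.72). Among 3 efflux pumps ABCC3 fell (-1.41), and ABCC2 (-0.06) did not pass. In the iron and heme list 2 of 6 fell and 1 rose; HMOX1, which degrades heme, dropped from 131 ± 5.32 to 59.4 ± 3.07 CPM (-1.14 ± 0.05, edgeR adjusted p = 3.84e-16), and FTL, a ferritin chain, changed by -0.58. The remaining list rose in all 3 members, with TRIM16L at 0.62 and TRIM16 at 0.23.

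**Figure D3:**
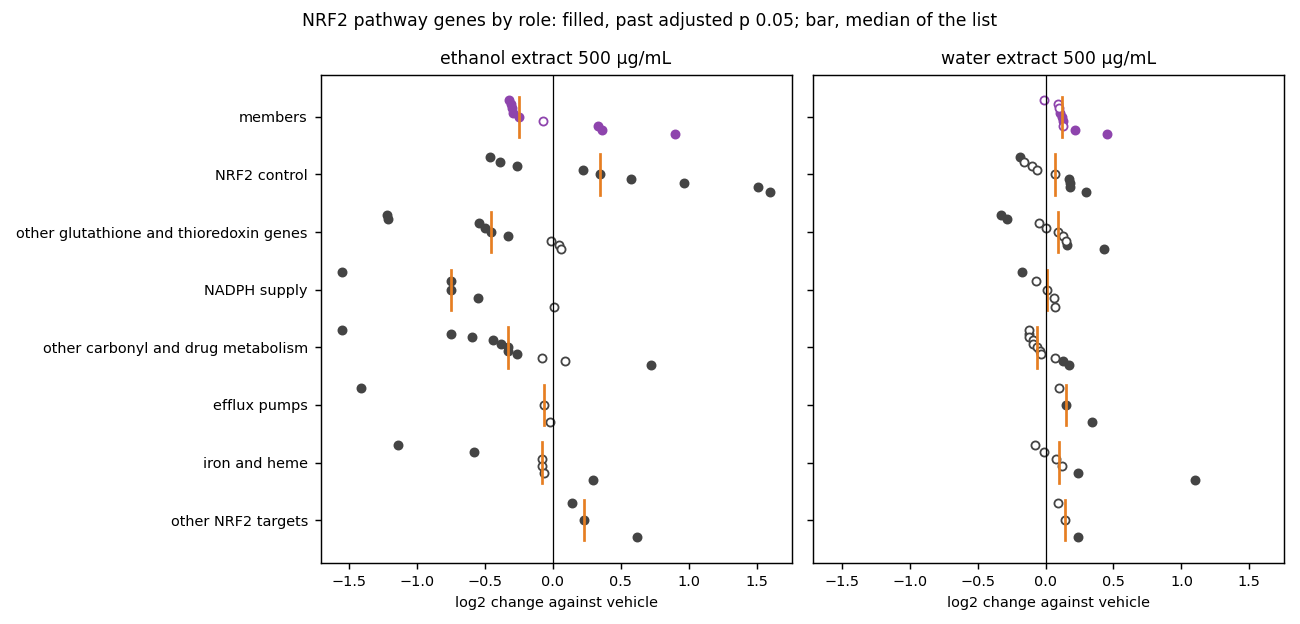
Log2 change against vehicle (x axis) of the 9 members and of 46 other NRF2 pathway genes by role, for the ethanol (left) and water (right) extract at 500 µg/mL; filled points passed an adjusted p of 0.05 and bars are list medians. NADPH supply has a median of -0.75 with the ethanol and 0.01 with the water extract.

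With the water extract at 500 µg/mL, 13 of the 46 rose, 5 fell and 28 did not pass, with a median of 0.07. Over all genes tested, 9.7% rose and 11.4% fell there. HMOX1 went to 281 ± 9.21 CPM (1.10 ± 0.04, edgeR adjusted p = 5.86e-14). SLC7A11, which imports cystine for glutathione synthesis, rose by 0.43 (edgeR adjusted p = 7.56e-05), ABCC2, a glutathione conjugate pump, by 0.34 (edgeR adjusted p = 5.84e-07), and MGST1 fell by 0.28 (edgeR adjusted p = 4.31e-05). NFE2L2 was at 104 ± 0.859 CPM (-0.06, edgeR adjusted p = 0.312) and KEAP1 rose by 0.18 (edgeR adjusted p = 0.0447).

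SQSTM1 rose by 0.17 and CUL3 fell by 0.19 (edgeR adjusted p = 0.000737 and 0.00118), both in the NRF2 control list, where 4 of 9 rose and 1 fell. PGD gave -0.07 without passing. ABCC1 (0.15), TRIM16 (0.24), FECH (0.24), UGDH (0.17) and AKR1C2 (0.13) rose, and NR0B1 (0.14) did not pass. The counts at 100 µg/mL were 10 higher and 5 lower of 46 with the ethanol and 7 and 6 with the water extract. Of all genes, 17.5 and 12.6% were called in these 2 comparisons. NFE2L2 did not pass in either, and KEAP1 rose by 0.19 and 0.24.

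Which other genes tracked the average of the members was read from a correlation. The log2 CPM of each gene was set against the members' mean profile over the 21 libraries of batch 1. Among 9513 genes of at least 10 CPM, the closest were YIPF4 (r = 0.92), UGDH (0.90), SLC7A11 (0.89), SPINT2 (0.87) and SLC35F5 (0.87). These libraries share treatments and vehicle, so the values describe likeness only. Members that moved in opposite directions partly cancel in the mean. With the highest dose of the ethanol extract 3 of 9 members rose against vehicle and 5 fell. In batch 2 ME1 rose and AKR1C1 fell with the mitochondrial share. The genes named here therefore track an average and need not follow each member. UGDH and SLC7A11 are also on the pathway lists. Over the 75 libraries of batch 2 (9603 genes) the closest were EIF4A3 (0.73), PSMD10 (0.73), LAPTM4B (0.71), DKK1 (0.69) and TSPAN13 (0.67), with no gene in common with the former set.

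In batch 2 few members were called with any ingredient. Of 216 tests of a member against vehicle, 3 passed: NQO1 and AKR1C1 with gallic acid at 10 µM, and AKR1C1 with catechin at 2 µM. Over all genes, 13.5% were called with gallic acid at 10 µM and 8.06% with catechin at 2 µM; in the other 22 ingredient comparisons the share ran from 0.0218 to 4.66%. Those 22 gave no member call with edgeR, with 21 of their 198 member tests at an unadjusted p under 0.05. DESeq2 called 2 of the 198, GCLC (-0.27, DESeq2 adjusted p = 0.0115) and GCLM (-0.23, DESeq2 adjusted p = 0.0309) with oleanolic acid at 10 µM.

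The background differed between ingredients, given here as the share of all genes called by edgeR at 10, 2 and 0.4 µM in turn. It was 4.45, 0.322 and 0.18% for oleanolic acid, 2.42, 0.0546 and 3.05% for hederagenin, and 0.191, 0.229 and 0.136% for paeoniflorin. Gallic acid at 2 and 0.4 µM gave 0.611 and 0.0709%, and catechin at 10 and 0.4 µM gave 0.0655 and 4.66%. Paeonol gave 0.126, 0.0873 and 0.278%, benzoic acid 0.0273, 0.0218 and 0.0327%, and albiflorin 0.0382% at each dose. The shares fell with each lower dose for gallic acid and oleanolic acid only.

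**Figure D4:**
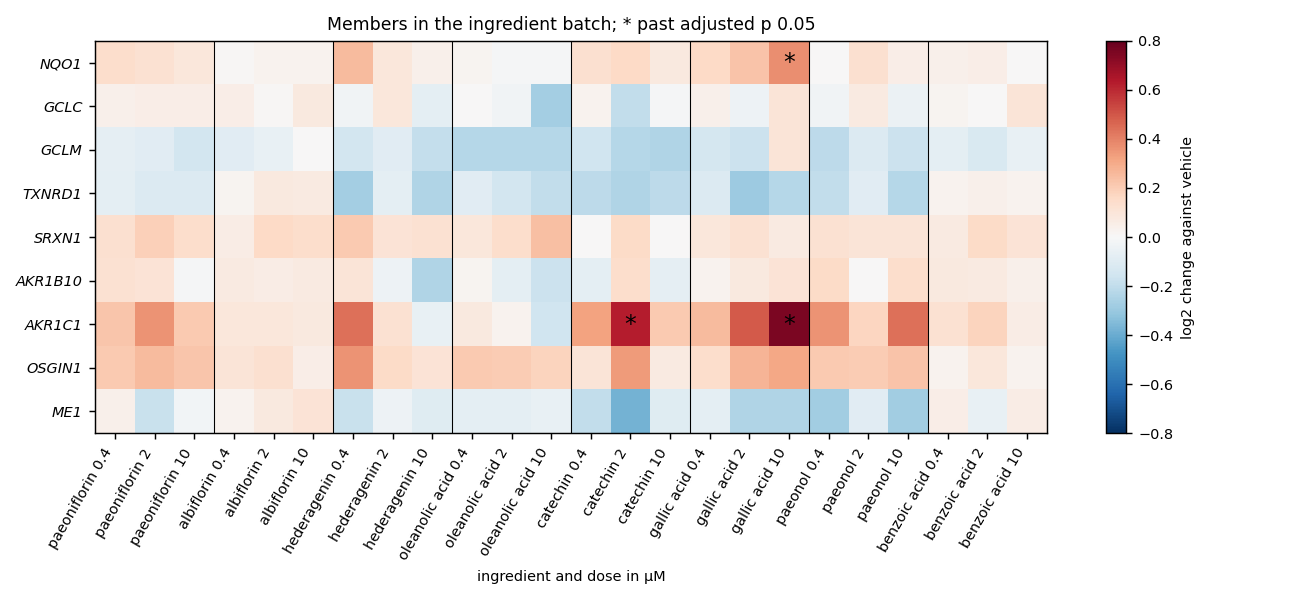
Log2 change of each member (rows) against vehicle for 8 ingredients at 3 doses in µM (columns), on a colour scale from -0.8 to 0.8; stars mark an adjusted p below 0.05. The stars stand at NQO1 and AKR1C1 with gallic acid at 10 µM and AKR1C1 with catechin at 2 µM.

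With gallic acid at 10 µM, AKR1C1 was at 862, 466 and 653 CPM, against 387, 386 and 404 in vehicle. It rose by 0.75 ± 0.19 (edgeR adjusted p = 0.0101), and although no library overlapped, the treated libraries spread far more than vehicle. NQO1 was at 2272, 1579 and 2036 CPM, against 1514, 1527 and 1517, and rose by 0.37 ± 0.12 (edgeR adjusted p = 0.0372). GCLM, at 232, 231 and 233 CPM, lay above vehicle (214, 211 and 224) and was the tightest of the group, but its change of 0.10 ± 0.08 did not pass (edgeR adjusted p = 0.363).

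Replicates 1 and 3, the high ones for AKR1C1 and NQO1, had mitochondrial shares of 1.44 and 2.07%, against 11.6 to 12.1% in vehicle. Without the 18 libraries under 5%, a limit chosen after seeing the data that leaves 1 gallic acid library at this dose, AKR1C1 gave 0.26 and NQO1 0.06 (edgeR adjusted p = 0.246 and 0.825). Without replicate 1 of gallic acid neither was called (0.51 and 0.25), and NQO1 was also lost without replicate 3 or any vehicle library. The sum of the AKR1C genes changed by 0.50 (edgeR adjusted p = 0.00439). At 2 and 0.4 µM, AKR1C1 gave 0.49 and 0.25 and NQO1 0.23 and 0.16, none past the test.

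Of the other pathway genes, 12 of 46 rose with gallic acid at 10 µM and none fell, where 13.5% of all genes were called. HMOX1 went from 122 ± 2.5 to 313 ± 21.8 CPM (1.36 ± 0.15, edgeR adjusted p = 1.84e-08). NFE2L2 was at 77.7 ± 19.2 CPM against 102 ± 1.73, and KEAP1 at 100 ± 26.1 against 73.4 ± 0.258; neither passed (edgeR adjusted p = 0.286 and 0.0722). Oleanolic acid at 10 µM lowered 3 of the 46, where 4.45% of all genes were called, and hederagenin 1, where 2.42% were. The remaining 5 ingredients called none at that dose, where 0.0273 to 0.191% of all genes were called.

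With catechin at 2 µM, AKR1C1 was at 796, 486 and 543 CPM and rose by 0.63 ± 0.19 (edgeR adjusted p = 0.0431). Replicate 1, the highest, had a mitochondrial share of 0.486%, the lowest of the batch, and held ME1 at 72.7 CPM, also the lowest. Replicate 2 had a share of 3.52% and was among the 4 libraries rich in COL1A2. Without replicate 1, or without any vehicle library, AKR1C1 was not called, and with the mitochondrial share as a covariate the change was 0.18 (adjusted p = 0.483). Catechin at 10 and 0.4 µM gave 0.21 and 0.32, not past the test.

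**Figure D5:**
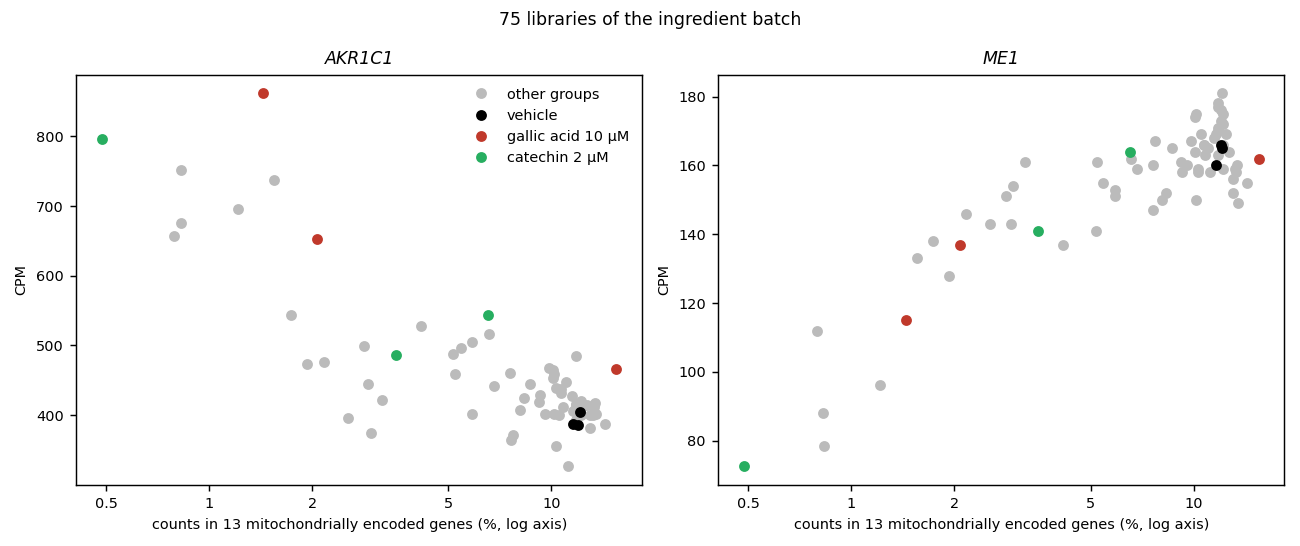
AKR1C1 and ME1 levels in CPM against the share of counts in mitochondrially encoded genes (percent, log axis) in the 75 libraries of batch 2. Among the 18 libraries under 5% the median AKR1C1 level is 536 CPM against 415 in the others and that of ME1 is 137 against 163, with overlap.

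Across the 75 libraries, log2 CPM of ME1 rose with the log2 mitochondrial share (r = 0.86, rho = 0.63) and that of AKR1C1 fell (r = -0.80, rho = -0.62). Each of these 4 values had a permutation p of 1e-05, the smallest that 100000 permutations can give, with Benjamini-Hochberg adjusted values of 3e-05 for r and 4.5e-05 for rho over the 9 members. The permutations treated the 75 libraries as independent, although they form 25 groups of 3 that share a treatment. All permutation p-values of this relation, here and below, may therefore be too small, and treatment and share are not separated. Without the 2 libraries farthest from the median share r was 0.83 and -0.76, and among the 57 libraries at or above 5% it was 0.40 and -0.47. In the 18 libraries below 5%, AKR1C1 had a median of 536 CPM against 415 in the others, and ME1 137 against 163. TXNRD1 went the way of ME1 (r = 0.59, rho = 0.46, adjusted permutation p = 3e-05 and 0.00012; r = 0.64 without the 2 farthest libraries and 0.28 among the 57). GCLC (r = 0.50, rho = 0.26, adjusted permutation p = 4.5e-05 and 0.03; r = 0.41 without the 2 farthest libraries and -0.00 among the 57) also went that way.

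NQO1 went the way of AKR1C1 (r = -0.36, rho = -0.43, adjusted permutation p = 0.0029 and 0.00045; r = -0.52 without the 2 farthest libraries and -0.58 among the 57). So did OSGIN1 (r = -0.47, rho = -0.36, adjusted permutation p = 0.00011 and 0.0028; -0.36 and -0.18) and SRXN1 (r = -0.32, rho = -0.33, adjusted permutation p = 0.0071 and 0.0058; -0.24 and -0.10). AKR1B10 passed on r but not on rho (r = -0.36, rho = -0.07, adjusted permutation p = 0.0022 and 0.57; -0.30 and 0.21). GCLM alone showed no relation past the threshold on either (r = 0.22, rho = 0.12, adjusted permutation p = 0.058 and 0.37). The part of this share in the ingredient results was not tested beyond the settings given.

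No other member was called against vehicle with edgeR, and their order was loose. Their log2 changes ran from -0.38 for ME1 to 0.36 for OSGIN1. Changes of such size were called in batch 1, where the common biological coefficient of variation was 0.0444 against 0.212 here. OSGIN1 was lowest in vehicle (95 ± 5.74 CPM) and highest with hederagenin at 0.4 µM (122); its change was positive in all 24 ingredient comparisons, from 0.03 to 0.36, and none passed. SRXN1 was positive in 22 of 24 (0.00 to 0.24), and GCLM negative in 22 of 24 (-0.24 to 0.10), also without a call. All 24 comparisons share the 3 vehicle libraries, so these signs are not 24 independent observations.

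GCLC ranged from -0.27 with oleanolic acid at 10 µM (208 CPM against 251 ± 4.27 in vehicle) to 0.10 with gallic acid at 10 µM. TXNRD1 ranged from -0.29 with gallic acid at 2 µM to 0.08 with albiflorin at 2 µM, and was negative in 18 of 24. AKR1B10 ranged from -0.24 with hederagenin at 10 µM (2576 CPM against 3045 ± 47.3 in vehicle) to 0.15 with paeonol at 0.4 µM. ME1 ranged from -0.38 with catechin at 2 µM to 0.11 with albiflorin at 10 µM.

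In the order of the 25 group means, neighbouring groups overlapped everywhere for 8 of the 9 members. For GCLM 2 of the 24 neighbouring steps were apart, and the highest group, gallic acid at 10 µM, lay above vehicle, which came next. The spread within groups was wide for some members: the SD of AKR1C1 ran from 0.807 to 198 CPM and that of NQO1 from 6.43 to 489 CPM.

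The albiflorin and benzoic acid groups were the quietest. With albiflorin at 10 µM the 9 changes ran from 0.00 for GCLM to 0.14 for SRXN1, where edgeR called 0.0382% of all genes. With benzoic acid at 10 µM they ran from -0.06 for GCLM to 0.11 for SRXN1, where 0.0273% were called. In both groups no member had an unadjusted p under 0.05 and DESeq2 called 0. Fitted with the vehicle group alone, albiflorin at 10 µM gave 4 member calls, at changes of 0.07 to 0.14, in a fit that called 1442 genes against 7 in the full one.

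Related compounds were compared in 3 pairs at each of 3 doses, 9 comparisons in all. Gallic acid differs from benzoic acid by the hydroxyl groups on its ring. At 10 µM AKR1C1 was at 660 ± 198 CPM with gallic and 410 ± 8.88 with benzoic acid, a difference of 0.69 (95% interval 0.30 to 1.08, edgeR adjusted p = 0.0257). NQO1 differed by 0.37 (0.13 to 0.61, edgeR adjusted p = 0.047), so 2 of 9 members were called where 8.7% of all genes were. Neither was called without gallic acid replicate 1 or 3, nor without any of the 3 benzoic acid libraries, while 4 members were called without gallic acid replicate 2. Without libraries under 5% the differences were 0.19 and 0.06, neither past the test.

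The other 8 pair comparisons gave no member call with edgeR, where 0 to 0.0109% of all genes were called; 2 of 72 member tests had an unadjusted p under 0.05. DESeq2 called 0 members in those 8. Hederagenin carries a hydroxyl group that oleanolic acid lacks. At 10 µM GCLC was at 237 ± 7.64 CPM with hederagenin and 208 ± 2.19 with oleanolic acid, and its difference of 0.19 had an interval of 0.01 to 0.36 (edgeR adjusted p = 1). For AKR1C1 the interval was -0.29 to 0.49 and for ME1 -0.42 to 0.34, wide enough to hold changes as large as those of the ethanol extract.

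Paeoniflorin and albiflorin are isomeric monoterpene glycosides. At 10 µM the differences ran from -0.18 for TXNRD1 (interval -0.44 to 0.09) to 0.17 for OSGIN1 (-0.08 to 0.43), and NQO1 differed by 0.06 (-0.19 to 0.30). No pair is shown to act alike by these values, since intervals of this width hold differences of either sign for nearly all members.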

How the data were processed

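RNA sequencing covered 96 libraries of A549 in 32 groups, grouped by their labels, with a vehicle group in each of 2 batches. The deposited values are expected counts per gene, estimated by the authors. Named in the submitters' processing notes are RSEM 1.3.3, STAR, Trim Galore and FastQC, with the build GRCh38 (hg38). No source used here gives the settings, the annotation release or whether counting used strand, and the kit was MGIEasy RNA Directional per the labels. Of the deposited counts 89.2% were whole (within 0.005).

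Counts were rounded and the 2 batches were fitted apart, every group of a batch in 1 model, in edgeR 4.0.16 (R 4.3.3): filterByExpr, trimmed mean of M-values, glmQLFit and glmQLFTest, with Benjamini-Hochberg adjustment over 16854 and 18324 genes. Of 44 comparisons, 11 were in batch 1 and 33 in batch 2. Every printed adjusted p of a gene is from edgeR unless DESeq2 1.42.0 is named. No pair of replicates was identical (0 of 96 pairs). The members, lists, comparisons and tests were chosen with earlier results of these data known.

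All 9 members are named throughout, with NFE2L2, KEAP1 and, per list, up to 2 genes with the smallest p for each extract at 500 µg/mL; other pathway genes named were chosen after their values were seen. A gene that this rule would name is not reported here. Likeness used log2(CPM + 0.5). Gene positions and exon lengths are from GENCODE v29 (GRCh38) and may differ from the authors' annotation. AKR1C3 carries more than 1 identifier, and its list entry uses the first while the AKR1C sum uses all.

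On simulated counts for ethanol extract at 500 µg/mL against vehicle (16553 genes), the test recovered 92, 94 and 100% of genes changed 1.5-, 2- and 4-fold and 72% at the smallest fold simulated, with 14 of 193 calls false. For gallic acid at 10 µM (17972 genes) these were 32, 72, 96 and 2%, with 9 of 110 calls false. Only 50 genes were changed at each fold and all others were left equal, whereas the real comparisons called 69.1 and 13.5% of genes. The adjustment depends on how many genes change. These figures therefore do not give the recovery or the share of false calls in the data.

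Same-numbered replicates deviated together (every correlation over 0.1) in 0 of 11 comparisons of batch 1 and 2 of 33 of batch 2, hederagenin against oleanolic acid at 10 µM and paeoniflorin against albiflorin at 2 µM. The replicate block changed no member call in those 2. Alternatives were DESeq2 and its size factors, no filter, the replicate block, only the groups compared, leaving out each library, and leaving out the 4 COL1A2-rich libraries (over 100 CPM). The mitochondrial share as a covariate, the 5% limit and the AKR1C sum were added after seeing the data.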

Additional observations from a re-analysis of the deposited data

How the results depend on the processing

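The ethanol extract at 500 µg/mL had 8 member calls against vehicle (9 with DESeq2 or the replicate block), 8 against 20 µg/mL and 9 against the water extract, and leaving out each library gave 8 to 8, 8 to 8 and 9 to 9. Without single libraries the other extract counts ranged from 3 to 5 (ethanol 100 against vehicle, 6 with all libraries), 0 to 2 (ethanol 20, 0), 2 to 6 (water 500, 5), 0 to 1 (water 100, 1), 0 to 4 (water 20, 2), 0 to 2 (ethanol against water at 100, 1) and 1 to 2 (water 500 against 20, 2). In batch 2 they ranged from 0 to 3 (gallic acid 10 µM, 2), 0 to 4 (gallic against benzoic acid over 3 doses, 2) and 0 to 4 (the 8 ingredients at 2 µM, 1), and were 0 to 0 for every other comparison run. Calls over all genes moved as well. For water 20 they numbered 1602 with all libraries, 763 without vehicle replicate 3 (0 members) and 1924 without vehicle replicate 2 (4 members).

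With the replicate block the counts were 2 for ethanol 20, 2 for water 100, 4 for water 20, 3 for ethanol against water at 100, 2 for the ingredients at 2 µM and 1 at 0.4 µM; no member's direction turned. With DESeq2 they were 2 for water 100, 4 for water 20, 2 for ethanol against water at 100, 3 for the ingredients at 2 µM and 2 for oleanolic acid at 10 µM. With DESeq2's size factors in edgeR, water 500 against 20 gave 1 and oleanolic acid 1. Without the filter, ethanol against water at 100 gave 2, water 500 against 20 gave 1, the ingredients at 2 µM 0, gallic acid 1 and gallic against benzoic acid 1. Calls over all genes, in the same order, numbered 1873, 2851, 2391, 451, 1822 and 1641 with the replicate block. With DESeq2 they numbered 1935, 1523, 349, 4470 and 1053. They were 341 and 819 with its size factors, and 422, 505, 135, 1088 and 522 without the filter. Those for the 8 ingredients at 1 dose are summed over their comparisons.

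With only the groups compared, the counts were 2 for water 500, 0 for water 100, 0 for water 20, 2 for ethanol against water at 100, 1 for water 500 against 20, 4 for albiflorin, 4 for oleanolic acid, 0 for gallic acid, 0 for gallic against benzoic acid and 4 for the ingredients at 0.4 µM. With the mitochondrial share as a covariate they were 1 for ethanol 20, 1 for water 500, 0 for water 20, 3 for ethanol against water at 100, 0 for the ingredients at 2 µM, 1 for hederagenin, 2 for oleanolic acid, 1 for gallic acid and 1 for gallic against benzoic acid, and AKR1C1 with water 100 reversed to -0.12 (edgeR adjusted p = 0.0489). Without the COL1A2-rich libraries the ingredients at 2 µM gave 3 and oleanolic acid 1. Calls over all genes, in the same order, numbered 2470, 1400, 803, 403, 336, 1442, 3737, 0, 0 and 8918 with only the groups compared. With the covariate they numbered 1356, 1884, 742, 580, 995, 1523, 2363, 1771 and 876. They were 4458 and 999 without the COL1A2-rich libraries. Without libraries under 5% the counts were 5 for the ingredients at 2 µM, 4 at 0.4 µM, 2 for hederagenin, 3 for oleanolic acid, 0 for gallic acid, 1 for hederagenin against oleanolic acid and 0 for gallic against benzoic acid. In that setting the calls over all genes also grew in number for the first 4 of these, to 9172 summed over the ingredients at 2 µM, 10702 at 0.4 µM, 2566 for hederagenin and 3598 for oleanolic acid. The cause was not tested.

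Of 2610 member values over all settings, 2424 kept their call, 113 lost it, 72 gained one and 1 reversed; a value that missed the threshold in both fits counts as kept whatever its sign. Leaving out the treated libraries of the 2 and 0.4 µM groups, other than catechin at 2 µM, was not run. Spread was wider in batch 2, with a common biological coefficient of variation of 0.212 against 0.0444 in batch 1. The test recovered 32% of simulated 1.5-fold changes for gallic acid. That simulation changed far fewer genes than were called in the data, so it does not give the recovery there. The genes called with gallic acid at 10 µM numbered 2469, against 1088 without the filter, 264 without libraries under 5% and 0 with only the groups compared. Size factors of the other kind shifted the median of all genes by at most 0.01 on the log2 scale.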
